A study of Drosophila melanogaster with 24 samples.

Results

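In 61 of 16637 measured transcripts, the Drosophila melanogaster strain Samarkand stood apart from 3 other wild-type strains both in late larvae and in prepupae. In 30 of them the Samarkand signal was above that of every other strain, and in 31 it was below. A transcript was counted when the Samarkand mean differed from each of the other strain means by at least 0.5 on the log2 scale, at both stages and in the same direction. The distance to the nearest other strain is called the margin here. The transcripts were thus selected on these strain means of quantile-normalized log2 values, so the strain differences below are a description and carry no test.

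RNA of whole animals was measured in 4 strains, Oregon-R, Canton-S, Samarkand and Zimbabwe-109, at 2 stages. The stages were the late larva, in its last instar, which the labels give the number 18, and the white prepupa at puparium formation. Each of the 8 groups held 3 biological replicates, each a pool of 60 to 80 animals (about 120 mg) on 1 array read in 1 colour. No treatment is named for any of these wild-type groups. All were raised in constant light at 25 °C on food that held 0.05% bromophenol blue, and the sex of the animals is not given in the sources used here.

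Puparium formation opens metamorphosis, and it follows a pulse of the steroid hormone ecdysone that switches many genes on or off across the larval tissues. Wild-type stocks kept apart differ in genome sequence and in the level of many transcripts, so a transcript can be high or low in a strain whatever the stage. An array reads a transcript through fixed probes, and its signal depends both on the amount of RNA and on how well that RNA matches the probe. For a difference between strains these cannot be told apart here, nor can a difference in RNA extraction, which per the labels was done separately for each strain. In whole animals, fewer cells of a type and less RNA per cell cannot be told apart either.

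The values are intensities in log2 units, quantile normalized over the 24 arrays, whose median intensities were 1936 at the lowest and 3289 at the highest as deposited. Precision is limited by the number of arrays, 3 in each group. None of the 61 transcripts was paired with a gene in the table of gene names used here, so they are given by FlyBase identifier and no role can be stated for them. Marker genes of tissues could not be checked for the same reason. Every array correlated more with its own group than with the other stage of its strain. The narrowest gaps between these mean correlations were 0.034 for prepupal replicate 2 of Zimbabwe-109, 0.039 for prepupal replicate 2 of Oregon-R and 0.041 for larval replicate 4 of Zimbabwe-109. These 2 Zimbabwe-109 arrays had stood apart in an earlier analysis of these data and were not chosen by the gaps given here. Without them the rule gave 28 transcripts above and 31 below. Each array was also placed between larva, at 0, and prepupa, at 1, on the mean stage difference of the strains other than its own. The scale thus rests on a different set of strains for each strain. By this measure Oregon-R larvae lay at 0.370 to 0.427, Canton-S larvae at -0.472 to -0.412, Samarkand larvae at -0.198 to -0.041 and Zimbabwe-109 larvae at 0.046 to 0.303.

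The same rule, applied to each other strain in turn, gave 123 transcripts above and 153 below for Canton-S, 56 and 52 for Zimbabwe-109, and 20 and 19 for Oregon-R. Of all transcripts, 0.18% met it with Samarkand above and 0.186% with Samarkand below. The rule was met in larvae by 51 transcripts with Samarkand above, of which 58.8% also met it in prepupae, and by 87 in prepupae, of which 34.5% also met it in larvae. With Samarkand below, 44 met it in larvae and 56 in prepupae, and the 31 in common were 70.5% and 55.4% of these lists. Where the arrays were left unscaled, the rule gave 47 transcripts above and 11 below, of which 27 and 11 were among the 61. On that scale the median of all transcripts lay 0.20 higher in Samarkand larvae than in the mean of the others, and 0.10 higher in prepupae. No transcript met the rule in opposite directions at the 2 stages. The plot of the Samarkand difference in larvae against that in prepupae shows both sets, with a few members far from the rest on the side below.

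**Figure D1:**
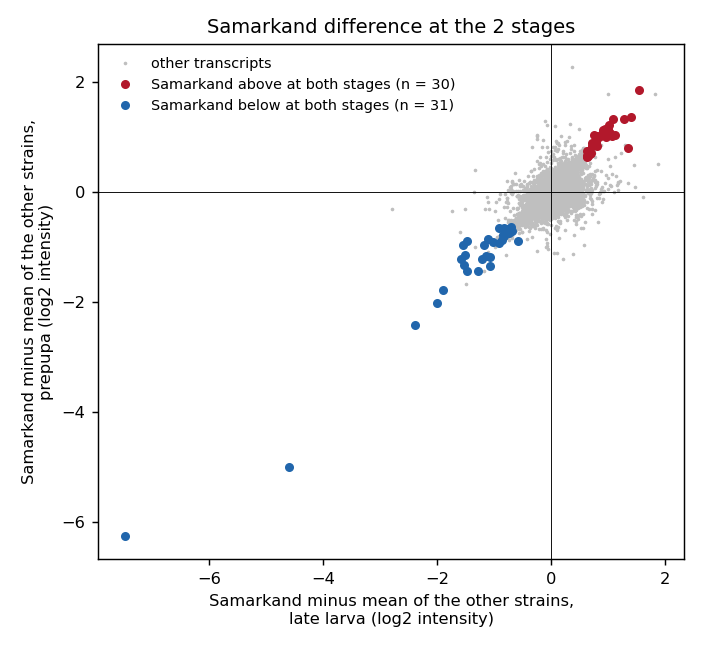
Difference between the Samarkand mean and the mean of the other 3 strains in late larvae (horizontal axis) and in prepupae (vertical axis), in log2 intensity, for each of 16637 transcripts. The 30 members above (red) lie between 0.62 and 1.55 in larvae, and the 31 below (blue) reach -7.49 in larvae and -6.24 in prepupae.

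The smaller of the 2 stage margins had a median of 0.64 in the transcripts above and 0.65 in those below. It reached 1, a 2-fold difference from the nearest strain, in 2 transcripts above and in 8 below, and lay under 0.6 in 12 and 13. The member nearest to the threshold had a margin of 0.501 above and 0.521 below. The transcripts just outside had 0.489 and 0.495. Within 0.05 of the threshold lay 8 transcripts inside and 6 outside on the side above, and 9 and 5 on the side below, so the size of each set depends on where the threshold is placed.

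**Figure D2:**
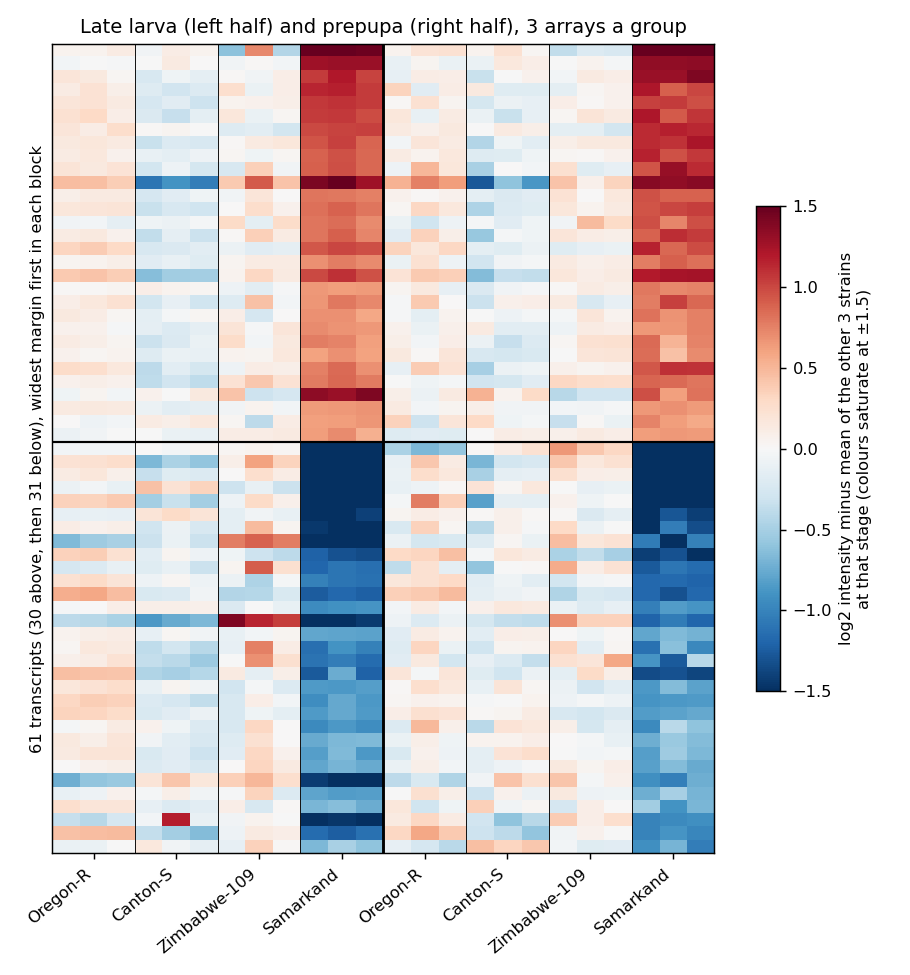
Each row is 1 of the 61 transcripts and each column 1 of the 24 arrays, 3 for each strain, with late larvae left of the thick line and prepupae right of it. Colour gives the log2 intensity minus the mean of Oregon-R, Canton-S and Zimbabwe-109 at that stage. The Samarkand columns are red in the upper 30 rows and blue in the lower 31 at both stages.

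The widest margin above was that of FBtr0074585. In Samarkand larvae it read 12.11, 12.07 and 11.97 in replicates 2, 3 and 4, and in Samarkand prepupae 12.19, 12.25 and 12.12 in replicates 1, 2 and 3. In Oregon-R it read 10.55, 10.55 and 10.62 in larvae and 10.39, 10.54 and 10.57 in prepupae. Canton-S was close to these values, with 10.44, 10.61 and 10.55 in larvae and 10.39, 10.57 and 10.37 in prepupae. Oregon-R and Canton-S overlapped at each stage. In Zimbabwe-109, replicates 1, 3 and 4 read 9.89, 11.22 and 10.07 in larvae, and replicates 2, 3 and 4 read 9.97, 10.13 and 10.10 in prepupae. The 6 Samarkand arrays were above all 18 others, and larval replicate 3 of Zimbabwe-109 came nearest to them. The Samarkand means were 12.05 ± 0.07 (SD, n = 3) in larvae and 12.19 ± 0.07 in prepupae. The margin was 1.47 in larvae and 1.69 in prepupae, and against the mean of the other strains Samarkand was 2.93-fold higher in larvae and 3.60-fold higher in prepupae. With a background correction that models background from the signals themselves, the smaller margin was 2.22.

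FBtr0085256 had nearly equal replicates in Samarkand. It read 10.70, 10.72 and 10.72 in Samarkand larvae and 10.82, 10.81 and 10.82 in Samarkand prepupae. In larvae, Oregon-R read 9.39, 9.42 and 9.41, Zimbabwe-109 9.37, 9.44 and 9.38, and Canton-S 9.42, 9.56 and 9.43. In prepupae, Oregon-R read 9.38, 9.52 and 9.38, Zimbabwe-109 9.47, 9.54 and 9.46, and Canton-S 9.39, 9.64 and 9.59. The ranges of these strains lay close together, and every Samarkand array was above all of them. The margin was 1.24 in larvae and 1.28 in prepupae, a 2.44-fold and a 2.52-fold difference from the mean of the others, with Canton-S the nearest strain at both. This transcript lay at a mean percentile of 27.5 among all transcripts on Samarkand arrays and of 3.05 on the others, so its signal outside Samarkand was close to the dim end of the arrays.

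The widest margin below was that of FBtr0072463. In larvae of the other strains it was among the brightest signals of each array, with 15.32 on all 3 Oregon-R arrays, 15.36, 15.32 and 15.39 in Canton-S and 15.39, 15.41 and 15.39 in Zimbabwe-109. In Samarkand larvae all 3 replicates read 7.86, the 4th dimmest of the 16637 values on each array. Quantile normalization gives the same value to the same rank on every array, so equal readings here mean equal ranks and not equal intensities. As deposited, the intensity in Samarkand larvae was 215, 199 and 204, against 40188 to 48733 in larvae of the other strains. The larval groups were thus at opposite ends of the arrays. In prepupae Oregon-R read 14.17, 13.97 and 14.07, Canton-S 14.66, 14.76 and 14.87, and Zimbabwe-109 15.29, 15.04 and 14.95. Samarkand prepupae read 9.30, 7.86 and 8.03 in replicates 1, 2 and 3, which were intensities of 825, 195 and 227. Replicate 1 thus stood apart from the other two, and it still lay far under every array of the other strains. The signal was lower in Samarkand than the mean of the others by a factor of 179.8 in larvae and 75.7 in prepupae.

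FBtr0072541 was likewise at the dim end in Samarkand. It read 7.93 in each of the 3 larval replicates and 7.86, 7.93 and 7.86 in the prepupal ones, the 4th or 5th dimmest value of its array each time. In larvae, Oregon-R read 12.75, 12.77 and 12.80, Canton-S 11.86, 12.06 and 11.95, and Zimbabwe-109 12.63, 13.14 and 12.87. In prepupae, Oregon-R read 12.76, 13.28 and 12.99, Canton-S 12.18, 12.60 and 12.63, and Zimbabwe-109 13.28, 13.03 and 13.10. Canton-S thus lay below Oregon-R and Zimbabwe-109 on every array of a stage, and Samarkand far below them all. The margins against Canton-S, the nearest strain at both stages, were 4.03 and 4.59, and against the mean of the others Samarkand was lower by factors of 24.4 and 31.7. The files hold no call of detection and whether background was subtracted is not stated, so these factors are ratios of signal and depend on the treatment of background.

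**Figure D3:**
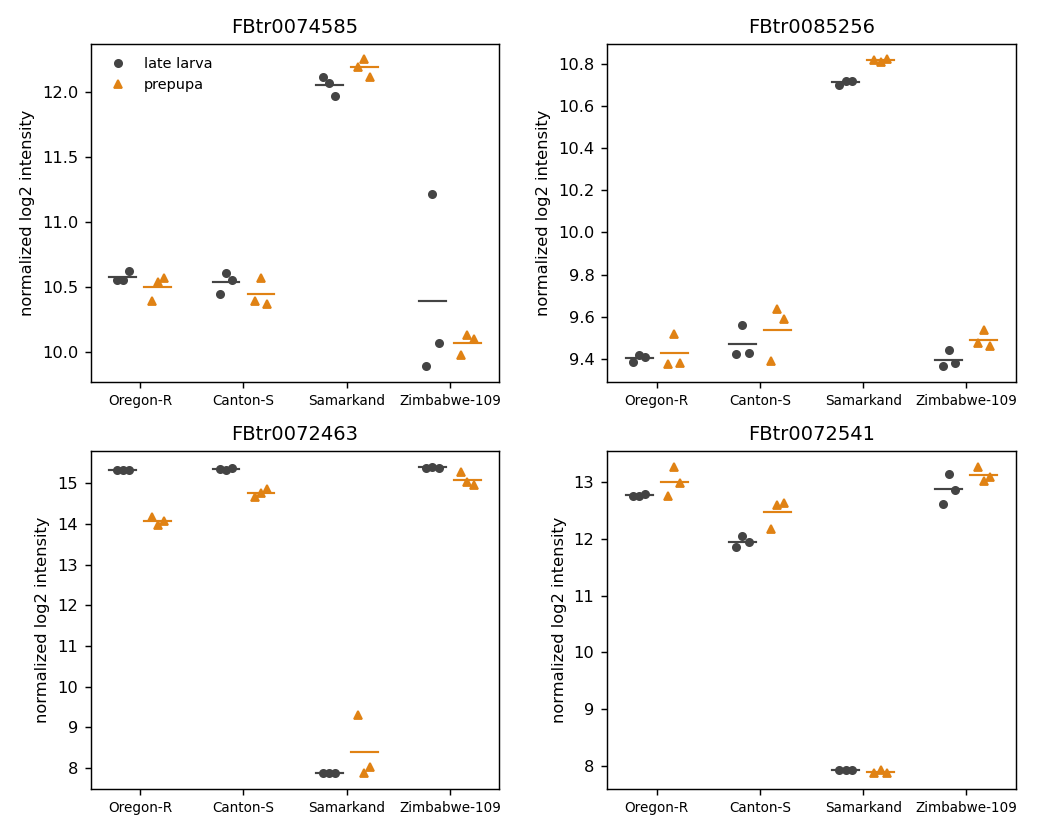
Normalized log2 intensity of the 2 transcripts with the widest margin above (upper panels) and below (lower panels), by strain. Points are single arrays, circles for late larvae and triangles for prepupae, and bars are means of 3. Samarkand lies clear of the other strains in each panel, and the vertical axes differ between panels and do not start at 0.

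Beside these, 4 more transcripts, singled out after their values were seen, had a mean percentile under 1 on Samarkand arrays. They were FBtr0077186, FBtr0112737, FBtr0114179 and FBtr0079353. FBtr0077186 lay at 7.74 ± 0.05 (SD, n = 3) in Samarkand larvae and 7.71 ± 0.05 in prepupae, as the 2nd or 3rd dimmest value of each array. It was dim in the other strains too, where its group means ran from 9.38 to 9.96. The other three had median percentiles of 10.1 to 11.3 on arrays of the other strains. Single arrays there were brighter, and FBtr0079353 reached 11.60 in larval replicate 3 of Canton-S. With FBtr0072463 and FBtr0072541, 6 of the 31 transcripts below lay under that percentile. Under the same rule this held for 1 of 19 in Oregon-R, 1 of 153 in Canton-S and 4 of 52 in Zimbabwe-109, each on its own arrays.

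Most members lay well inside the range of the arrays. Those above had a median position at percentile 79.3 on Samarkand arrays and 46.7 on the others, and those below at 14.0 and 56.5. A percentile here describes the brightness of a signal and not the abundance of one transcript against another. FBtr0073172, at margins of 2.14 in larvae and 2.16 in prepupae, was the third widest below. Its Samarkand means were 9.67 ± 0.05 in larvae and 9.75 ± 0.07 in prepupae (SD, n = 3), and it stood at group means of 11.81 to 12.31 elsewhere.

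**Figure D4:**
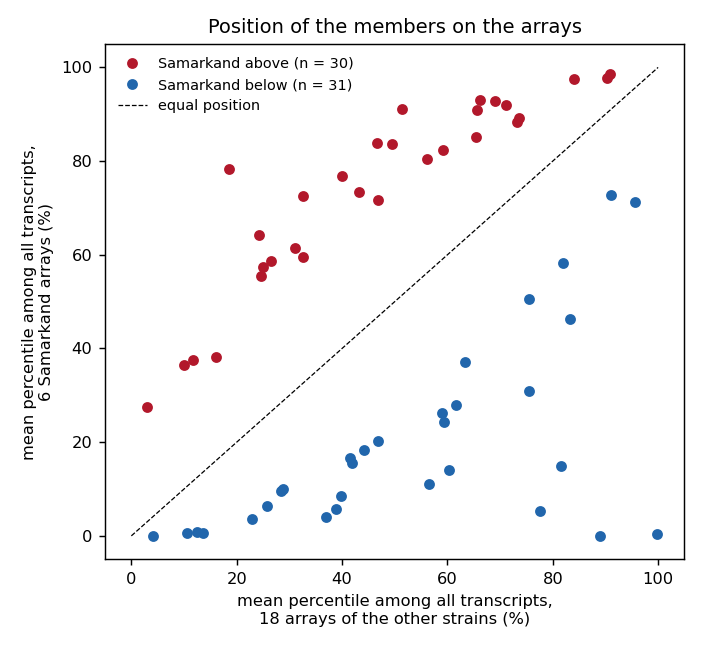
Mean percentile of each of the 61 transcripts among all transcripts, on the 18 arrays of the other strains (horizontal axis) and on the 6 Samarkand arrays (vertical axis), in percent. Members above lie over the dashed line of equal position. The 2 members below nearest to the lower right corner are FBtr0072463 and FBtr0072541, bright in the other strains and at the dim end in Samarkand.

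The Samarkand arrays did not overlap with those of the other strains in any of the 61 transcripts, at either stage. Over all transcripts, 1.82% had Samarkand above at both stages without overlap and 1.43% had it below. Since the rule chose on means of the same arrays, nothing is read from this count. The gap between the nearest Samarkand array and the nearest other array had a median of 0.53 in larvae and 0.55 in prepupae for members above, and of 0.62 and 0.51 for members below. The narrowest gap was 0.0011, in prepupae of FBtr0084333. The median SD of 3 replicates was 0.081 over the 61 transcripts and 8 groups, against 0.075 over all transcripts.

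The other 3 strains did not stand level with each other in these transcripts. Their means spanned a median of 0.32 in larvae and 0.31 in prepupae in the transcripts above, and 0.47 and 0.36 in those below, beside 0.38 and 0.30 over all transcripts. In the transcripts above, Canton-S was the lowest strain in 23 of 30 in larvae and 20 of 30 in prepupae. Among all transcripts, Canton-S was the lowest of these 3 strains in 46.0% and 42.9%. In the transcripts below, the highest strain in larvae was Oregon-R in 15, Zimbabwe-109 in 12 and Canton-S in 4, and in prepupae these counts were 12, 11 and 8. Among all transcripts the highest of the 3 was Oregon-R in 35.0%, Zimbabwe-109 in 27.8% and Canton-S in 37.2% in larvae, and in 27.0%, 35.1% and 38.0% in prepupae. These orders are a description, since the rule used the highest or lowest of the same means.

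In a few members another strain also stood apart. Of the 61, 1 also met the rule for Oregon-R, 2 for Canton-S and 1 for Zimbabwe-109, each time on the side opposite to Samarkand. In FBtr0072089, chosen after its values were seen, Samarkand was highest, at 12.80 ± 0.13 (SD, n = 3) in larvae and 12.65 ± 0.02 in prepupae. Canton-S was lowest, at 10.39 ± 0.10 and 10.38 ± 0.34, while Oregon-R and Zimbabwe-109 lay between 11.57 and 11.98. FBtr0082572 showed a different order. It stood at 9.77 ± 0.08 in Samarkand larvae, at 10.52 in Canton-S, at 10.86 in Oregon-R and at 12.48 ± 0.19 in Zimbabwe-109.

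The stage change was then examined, which sets prepupae against larvae and is a different contrast from the one that chose the transcripts. It is formed from the same group means that the rule used at each stage, so it is not independent of the choice, and the counts of calls are a description beside those of all transcripts. Averaged over the 4 strains, 35 of the 61 were higher in prepupae and 11 lower (limma, adjusted p under 0.05), or 57.4% and 18.0%. Over all transcripts 45% were higher and 26.4% lower. Of the transcripts above, 15 rose, 4 fell and 11 did not pass. Of those below, 20 rose, 7 fell and 4 did not pass. The median stage change was 0.06 in the transcripts above and 0.23 in those below, beside 0.07 over all transcripts. No member changed by 2-fold or more in this mean. With the arrays left unscaled 18 members rose and 8 fell, where 18.9% and 17.5% of all transcripts did.

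Within Samarkand, whose 2 means the rule set against every other strain, 30 members were higher in prepupae and 5 lower, 49.2% and 8.20% of the 61, where 31% and 19.8% of all transcripts were called. In Canton-S 27 rose and 9 fell, 44.3% and 14.8% of the 61, against 33.6% and 23.2% of all transcripts. The Zimbabwe-109 counts were 12 and 8 (11 and 8 without the 2 arrays named above), 19.7% and 13.1%, beside 16.3% and 13.3%. In Oregon-R 2 rose and 4 fell, 3.28% and 6.56%, beside 7.72% and 9%. Without larval replicate 4 of Samarkand, 19 members rose and 3 fell in that strain, beside 20.8% and 16.4% of all transcripts. With unscaled arrays 2 rose and 2 fell, beside 2.89% and 10.1%. The fall count in Samarkand was also 3 without larval replicate 2, larval replicate 3 or prepupal replicate 3, where 17%, 19.2% and 17.1% of all transcripts fell. The larvae of the strains differed in the stage position given above, each strain on its own scale, and its part in these counts was not tested.

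Over the 4 strains, 1 transcript above and 1 below were called higher in each, and 1 above was called lower in each. Of all transcripts, 4.93% were called higher and 6.29% lower in all 4 strains. FBtr0078179, a transcript above, had the strongest mean rise of the members, at 0.89 ± 0.07 (SE, limma adjusted p = 8.09e-10). Its rise was 0.90 in Samarkand, 1.00 in Oregon-R and 0.83 both in Canton-S and in Zimbabwe-109, and it went from 12.22 to 13.13 in Samarkand. The transcript FBtr0082715 fell in each strain, by 0.28 in Samarkand, 0.39 in Zimbabwe-109, 0.36 in Canton-S and 0.48 in Oregon-R, with a mean of -0.38 ± 0.03 (SE, adjusted p = 7.17e-11). In both of these the signal moved the same way in each strain. FBtr0086664, with Samarkand below, rose by 0.75 ± 0.09 in the mean (adjusted p = 2.67e-07), and its change of 0.45 in Oregon-R did not pass (adjusted p = 0.0863). These transcripts and those of the next paragraph were singled out after their values were seen.

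In other members the stage values of the strains lay further apart. FBtr0072968, with Samarkand above, changed by -0.80 ± 0.14 in Samarkand (SE, limma adjusted p = 0.000151). It changed by -0.54, -0.19 and -0.04 in Zimbabwe-109, Oregon-R and Canton-S, of which the first passed the test. In Zimbabwe-109 larvae, replicate 1 read 12.31 beside 11.57 and 11.63 in replicates 3 and 4. FBtr0087796, with Samarkand below, fell by 0.40 in Oregon-R, by 0.89 in Zimbabwe-109 and by 0.72 in Canton-S, and its change of -0.09 ± 0.12 in Samarkand did not pass (adjusted p = 0.55). Its Samarkand values were 11.35, 11.26 and 11.28 in larvae and 11.18, 11.08 and 11.37 in prepupae, and these ranges overlap. The difference between Samarkand and the others in stage change is made of the strain differences that the rule used, and it was not tested.

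Of the 4 transcripts with the widest margins, FBtr0074585 did not pass in the mean of the strains (-0.09 ± 0.10, SE, limma adjusted p = 0.437). FBtr0085256 rose by 0.07 ± 0.03 (adjusted p = 0.0328), a change that missed the threshold without any 1 of 8 arrays and without scaling. FBtr0072541 rose by 0.24 ± 0.06 (adjusted p = 0.0025). By strain its change passed in Canton-S alone, at 0.51 (adjusted p = 0.00204). The changes of 0.24 in Oregon-R, 0.26 in Zimbabwe-109 and -0.04 in Samarkand did not pass. FBtr0072463 fell by 0.40 ± 0.11 in the mean (adjusted p = 0.00281), and by strain the change was -0.30 in Zimbabwe-109, -0.59 in Canton-S and -1.25 in Oregon-R, of which the first did not pass. Its Samarkand change of 0.53 (adjusted p = 0.0466) was 0.08 without prepupal replicate 1 (adjusted p = 0.444). The call was lost when any 1 of 17 of the 24 arrays was left out, that one included.

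**Figure D5:**
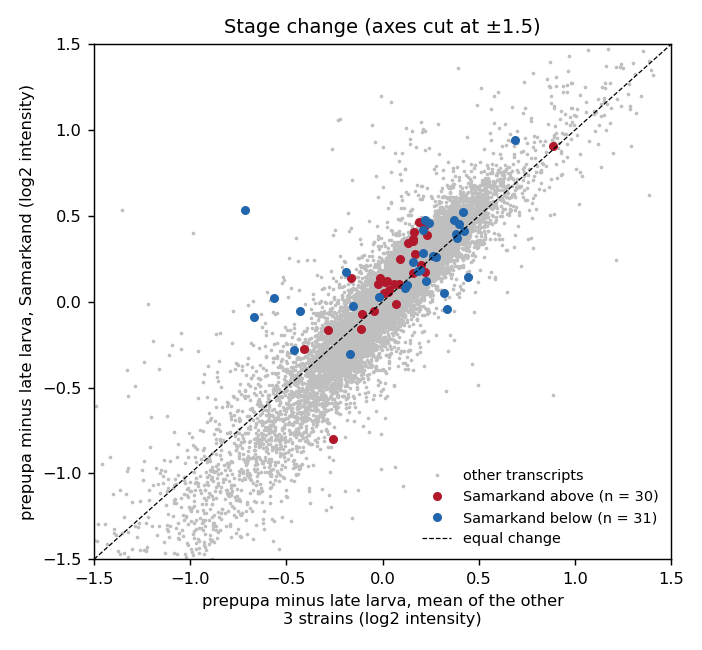
Stage change, prepupa minus late larva in log2 intensity, as the mean of the other 3 strains (horizontal axis) and in Samarkand (vertical axis). Members above are red, members below blue and other transcripts grey. Axes are cut at 1.5 on each side, and the blue point at the upper left is FBtr0072463, at -0.71 and 0.53.

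Taken over transcripts, which do not count as replicates, the stage change of Samarkand and the mean stage change of the other strains correlated at r = 0.65 over the 61 members, 0.85 over those above and 0.55 over those below. Over all transcripts r was 0.94. The values over the 61 and over those below include FBtr0072463, whose Samarkand change was 0.08 without prepupal replicate 1. The spread of the changes was not matched between members and all transcripts, so nothing about the members is read from their lower r. The stage changes of Samarkand and of the other strains had the same sign in 26 of the 30 above and 26 of the 31 below. The share of all transcripts with the same sign was not computed, so nothing about the members is read from these counts. The points share the scaling of the arrays and no sample.

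Some members carried identifiers that follow directly on each other. Among the transcripts above there were 7 such pairs, which covered 12 of the 30, and among those below 2 pairs, which covered 4 of the 31. Whether the paired identifiers are transcripts of 1 gene is not given by the files. If they share probes or a gene, these members are not independent of each other. FBtr0084613, FBtr0084614 and FBtr0084615 form such a run. Their Samarkand means were 12.65, 13.36 and 13.37 in larvae and 12.99, 13.76 and 13.83 in prepupae. Over the 18 arrays of the other strains, where the Samarkand difference plays no part, the first pair of this run correlated at r = 0.80 and the second at r = 0.89. The 9 pairs ranged in this measure from -0.52 to 0.89. The lowest was the pair FBtr0082571 and FBtr0082572, which were both lowest in Samarkand, while Zimbabwe-109 was high in the second of them alone.

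Similarity of pattern was counted as r above 0.95 over the 24 arrays. FBtr0074585 had no such partner among all other transcripts, and its nearest was FBtr0085256 at r = 0.94, another member. FBtr0085256 had 2, both members. FBtr0072463 had 4, all of them members. FBtr0072541 had 8, of which 5 were members, and the nearest was FBtr0073172 at r = 0.998. These correlations rest largely on the Samarkand difference by which the members were chosen.

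Among the transcripts with a gene name, SuUR and sle had Samarkand at or near one end and were not members. SuUR, which acts on replication in polytene chromosomes, had Samarkand means of 12.57 ± 0.08 in larvae and 12.70 ± 0.09 in prepupae (SD, n = 3), above the nearest strain, Canton-S, by 0.12 and 0.11. The transcript of sle, a nucleolar protein, stood at 13.01 ± 0.08 in Samarkand larvae, where Canton-S was lower by 0.02, and at 13.20 ± 0.03 in prepupae, where Samarkand was lowest by 0.16.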

How the data were processed

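The authors deposited 1 table of array intensity values, whole numbers on a linear scale, for 16637 FlyBase transcript identifiers and 24 samples. Per the submitters' processing notes it was made with RMA, whose version and genome build are not given in the sources used here. Array medians differed, so log2 values were quantile normalized over all arrays with limma (version 3.58.1, R version 4.3.3), with no filter on dim transcripts.

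A limma model with 1 mean per strain and stage took in all 24 arrays and left 16 residual degrees of freedom. Stage contrasts were two-sided, and a call needed a Benjamini-Hochberg adjusted p under 0.05 among the 16637 transcripts. The membership rule and the fit were tested on simulated data. For the rule, these had independent noise, Samarkand raised by more than the threshold and no differences among the other strains. They do not show how the rule does near the threshold or where the other strains differ.

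The members, lists and settings were chosen with earlier results of these data known. By a rule set with the design, the 2 members with the widest margins on each side are described, any other identifier having been singled out after its values were seen, and SuUR and sle were named as genes outside the members. A gene table of assembly Release 6 listed 44 of the identifiers, 16 of them with 1 gene, and none of the members, so the planned gene and marker lists gave no value and no sequence is printed. Replicates are separate pools of animals per the labels. Their shared numbers were checked for pairing and not used as a block.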

Additional observations from a re-analysis of the deposited data

Results flagged for a closer look

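Whether the stage change of the members differed among the other strains was tested after the data were seen, with a limma F test over Oregon-R, Canton-S and Zimbabwe-109. The test is formed from group means that the rule also used. It is thus not independent of the choice, and its counts and p values are a description. It passed in 13 of the 61 members (adjusted p under 0.05), 2 of those with Samarkand above and 11 of those with Samarkand below. Of all transcripts 24.9% passed, a larger share than among the 61. At an unadjusted p under 0.05 the count was 20, where 35.7% of all transcripts passed. The lowest p was that of FBtr0082572, which changed by -1.17 ± 0.09 in Zimbabwe-109 (SE) and by -0.12 and 0.00 in Oregon-R and Canton-S (interaction adjusted p = 1.94e-06). In FBtr0087797 the change was -0.71 in Zimbabwe-109, -0.03 in Canton-S and 0.18 in Oregon-R (adjusted p = 0.000799). FBtr0079353 changed by -1.34 in Canton-S, where larval replicate 3 read 11.60 beside 10.38 and 10.31, and by -0.04 in Oregon-R and -0.32 in Zimbabwe-109 (adjusted p = 0.00479). The count was 7 without scaling, where 7.81% of all transcripts passed. It was 7 of the 44 members that remained with the dimmest 30% left out, where 26.5% passed. Without any 1 array it was between 10 and 15. Without any 1 Samarkand array, 23.3% to 25.2% of all transcripts passed, and the shares without another array were not computed. Groups of 3 arrays are too small for a test of single arrays that stand apart.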

How the results depend on the processing

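Median centring, the median of arrays in place of the mean and quantile normalization within each stage left the counts of transcripts above and below within 1.5 times of 30 and 31. Without scaling they were 47 and 11, and 18 members rose with the stage in the mean of the strains, beside 18.9% of all transcripts. Within Samarkand 2 members then rose and 2 fell, beside 2.89% and 10.1%. Under normexp with an offset of 50 the counts above and below were 63 and 50, of which 30 and 29 were members. There 3 members fell within Samarkand, and the share of all transcripts was not computed. With the dimmest 30% left out, which removes FBtr0085256, 44 members remained, of which 7 fell in the mean and 3 within Samarkand. Of the 11646 transcripts kept, 27.3% fell in the mean and 21.8% within Samarkand. A margin of 0.25 gave 127 above and 100 below, 0.4 gave 47 above, 0.75 gave 9 and 14, and 1 gave 2 and 8. Leaving out each array in turn gave 27 to 32 above and 28 to 32 below. In the mean 34 to 38 members then rose and 10 to 12 fell, and within Samarkand 19 to 30 and 3 to 5. Without any 1 Samarkand array, 43.1% to 44.6% of all transcripts rose in the mean and 25.6% to 26.4% fell. Within Samarkand these shares were 20.8% to 29.7% and 16.4% to 19.2%. Shares without any 1 array of another strain were not computed. The Samarkand stage change of FBtr0072541 turned from -0.04 to 0.0089 with median centring and 0.022 within stages. The mean change of FBtr0074585 turned from -0.09 to 0.015 without larval replicate 3 of Zimbabwe-109 and was -0.15 without its larval replicate 1. None of these values passed the test, and the cause of these shifts was not tested.

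Shared replicate numbers were not treated as pairs. The deviations of same-numbered arrays from their group means correlated at between -0.63 and 0.42 in 9 pairs. With groups of 3 arrays these values cannot exclude a pairing. With the replicate number as a fixed block 29 members rose and 13 fell in the mean, 21 and 3 within Samarkand and 7 and 7 in Zimbabwe-109. As a random block 35 rose and 11 fell in the mean. The shares of all transcripts called with these blocks were not computed, so nothing about the members is read from these counts. Signal over background cannot be stated without detection calls, which limits what the dimmest values show.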
